A study of Homo sapiens with 6 samples.

Results

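Cytosolic ribosomal protein genes were examined in a pair of stable derivatives of MDA-MB-231, a breast cancer cell line that is triple-negative and invasive. The genes were picked by name: RPL or RPS followed by a number and, in some, A, X or L, together with the stalk genes RPLP0, RPLP1, RPLP2 and with RPSA. The pattern found 75 of the 19771 genes on the array, measured by 90 probes. It used no measured value, although the family was chosen with earlier results of these data known. By name, 41 encode proteins of the 60S subunit, 30 encode proteins of the 40S subunit, and 4 are alternative paralogs, namely RPL3L, RPL10L, RPL39L and RPS27L. RefSeq lists 81 protein-coding genes whose names fit, and 74 of them had a probe. RPL13A, RPL19, RPL21, RPL23, RPL36A, RPS10 and RPSA were not analysed here. RPS10L fits the pattern too and counts among the 40S genes by its name alone. RefSeq lists that name as a synonym of the RPS10 pseudogene RPS10P5 on chromosome 20. The 75 genes lie on 20 chromosomes, with 11 of them on chromosome 19 and 7 on chromosome 3.

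Ribosomal proteins assemble with ribosomal RNA into a small subunit, which decodes the mRNA, and a large subunit, which joins the amino acids. Their mRNAs are among the most abundant of a dividing cell, and most of them begin with an unbroken run of pyrimidines, the TOP tract, through which mTOR signalling and LARP1 adjust their translation together. In many tumours ribosome production is raised along with growth. These are known features of the family and not results of these arrays.

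MB-231-control carries the fluorescent protein ZsGreen alone, and MB-231-maspin carries maspin joined to ZsGreen by a self-cleaving P2A peptide. Both lines went through the same lentiviral transduction and blasticidin selection, and each is a pool of surviving clones. Their total RNA was measured on 3D-Gene oligonucleotide arrays with a single dye, Cy5, and there were 3 arrays per line. The comparison asks which transcripts differ between the line given maspin and the line given the fluorescent protein alone.

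Values are normalized intensities, which the authors scaled so that the median of each array is 25. Probe intensity depends on the probe, so values of one gene were compared between arrays and not with those of another gene. The arrays gave a value for 87.1% to 91.3% of the gene probes. SERPINB5, which encodes maspin, had a mean of 4.94 ± 0.76 (SD, n = 3) for the label MB-231-control and 3.80 ± 0.88 (SD, n = 3) for the label MB-231-maspin, so that its probe was not brighter with the transgene. These signals, 2.79 to 5.61 on single arrays, lie near the brightest negative control spots, at 2.58 to 9.35. Whether this probe can read the maspin cDNA of the vector was not tested, since its sequence was not used here, and groups are named by their labels. Of the markers of a mesenchymal breast cancer line, VIM lay between 11690 and 13760, AXL between 1802 and 2459, and CAV1 between 2436 and 2689, while SPARC was dim at 11.58 to 15.04. The hormone receptor gene ESR1 had no value on any array and PGR was at most 1.83, but CDH1 (46.3 to 63.7) and GATA3 (20.9 to 28.6) were above the minimum used below. Leukocyte and endothelial markers were at most 6.84. Separate cultures behind the 3 arrays of a line are mentioned neither in the labels nor in the methods, so p-values measure only the spread between these arrays, which may be technical. In a bulk RNA sample, fewer cells that express a gene and less RNA of it per cell cannot be told apart.

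The start sites of 14 of the genes named below are shown, those of the largest differences with a start on file and of RPS6, RPLP2, RPL10L and RPS27L, because the pyrimidine run is a feature that most of the family shares and that the name pattern did not use. RefSeq (GRCh38.p14) gave a promoter window for 58 of the 75 genes, with 72 starts in all. A tract was counted where the first transcribed base is C and at least 4 further bases, all C or T, follow it without a break, read on the strand of the gene. Each line gives 25 bases before the start and 15 from it, and the capitals mark the tract as far as those 15 bases show it.
RPS16 (chr19:39435935-39435974, minus strand): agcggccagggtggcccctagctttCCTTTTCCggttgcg
RPL12 (chr9:127451392-127451431, minus strand): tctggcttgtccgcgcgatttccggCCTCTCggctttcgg
RPL7A (chr9:133348193-133348232, plus strand): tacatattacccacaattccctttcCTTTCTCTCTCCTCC
RPS23 (chr5:82278340-82278379, minus strand): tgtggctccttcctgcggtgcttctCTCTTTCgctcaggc
RPL28 (chr19:55385907-55385946, plus strand): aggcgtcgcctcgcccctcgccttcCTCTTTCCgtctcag
RPL39 (chrX:119791616-119791655, minus strand): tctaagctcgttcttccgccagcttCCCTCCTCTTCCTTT
RPL22 (chr1:6199581-6199620, minus strand): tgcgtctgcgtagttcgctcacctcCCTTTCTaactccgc
RPL41 (chr12:56116608-56116647, plus strand): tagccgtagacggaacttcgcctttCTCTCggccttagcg
RPS27A (chr2:55232663-55232702, plus strand): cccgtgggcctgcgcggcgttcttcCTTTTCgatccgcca
RPL13 (chr16:89560657-89560696, plus strand): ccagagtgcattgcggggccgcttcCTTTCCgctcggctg
RPS6 (chr9:19380222-19380261, minus strand): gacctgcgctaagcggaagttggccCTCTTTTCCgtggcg
RPLP2 (chr11:809942-809981, plus strand): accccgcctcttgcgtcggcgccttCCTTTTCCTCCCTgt
RPL10L (chr14:46651767-46651806, minus strand): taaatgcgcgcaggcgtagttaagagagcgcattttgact
RPS27L (chr15:63157463-63157502, minus strand): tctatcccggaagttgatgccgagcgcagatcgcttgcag
Of the 72 starts, 41 (56.9%) had such a tract, against 4.07% of all 35116 starts in the table. Read on the opposite strand from the same base, 1.39% of the ribosomal protein starts and 2.07% of all starts held one. The longest run, 19 bases, was that of RPL39 and goes past the bases shown, as does the run of 16 in RPL7A. RPL10L and RPS27L, both alternative paralogs, have no tract at the start on file, and neither have 15 others of the 58 genes, RPL3 and RPL6 among them. A match describes the letters at the annotated start and is no measurement of these cells.

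Differences between the lines were small in the ribosomal protein genes. The test took genes whose mean exceeded 10 in at least 1 group and that had a value on at least 2 arrays of each group, which kept 71 of the 75. Of these 71, 0 were called at an adjusted p under 0.05 from limma, where 109 of all 12766 genes tested were called (0.854%), 68 of them higher (0.533%) and 41 lower (0.321%) with the maspin label. At an unadjusted p under 0.05 from limma, 2 ribosomal protein genes were higher, RPL39 and RPS10L, against 9.49% of all genes, and 1 was lower, RPS16, against 3.84% of all genes. With the methods' t-test there were 0 genes after adjustment, and 2 higher and 4 lower without it, against 9.43% and 4.36% of all genes by the same test. The median log2 difference, maspin minus control, was -0.03 over the 71 genes and 0.04 over all genes tested. It was also 0.04 over the 778 genes with a mean above 1000, none of which was called and among which 58 of the ribosomal protein genes lie. Of the 71 differences, 26 were above 0 and 45 below, and they ran from -0.19 to 0.38. Over all genes tested, 7646 were above 0 and 5120 below. The count above 0 in the family was 43 without control replicate 2, 11 without control replicate 3 and 16 with cyclic loess.

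**Figure D1:**
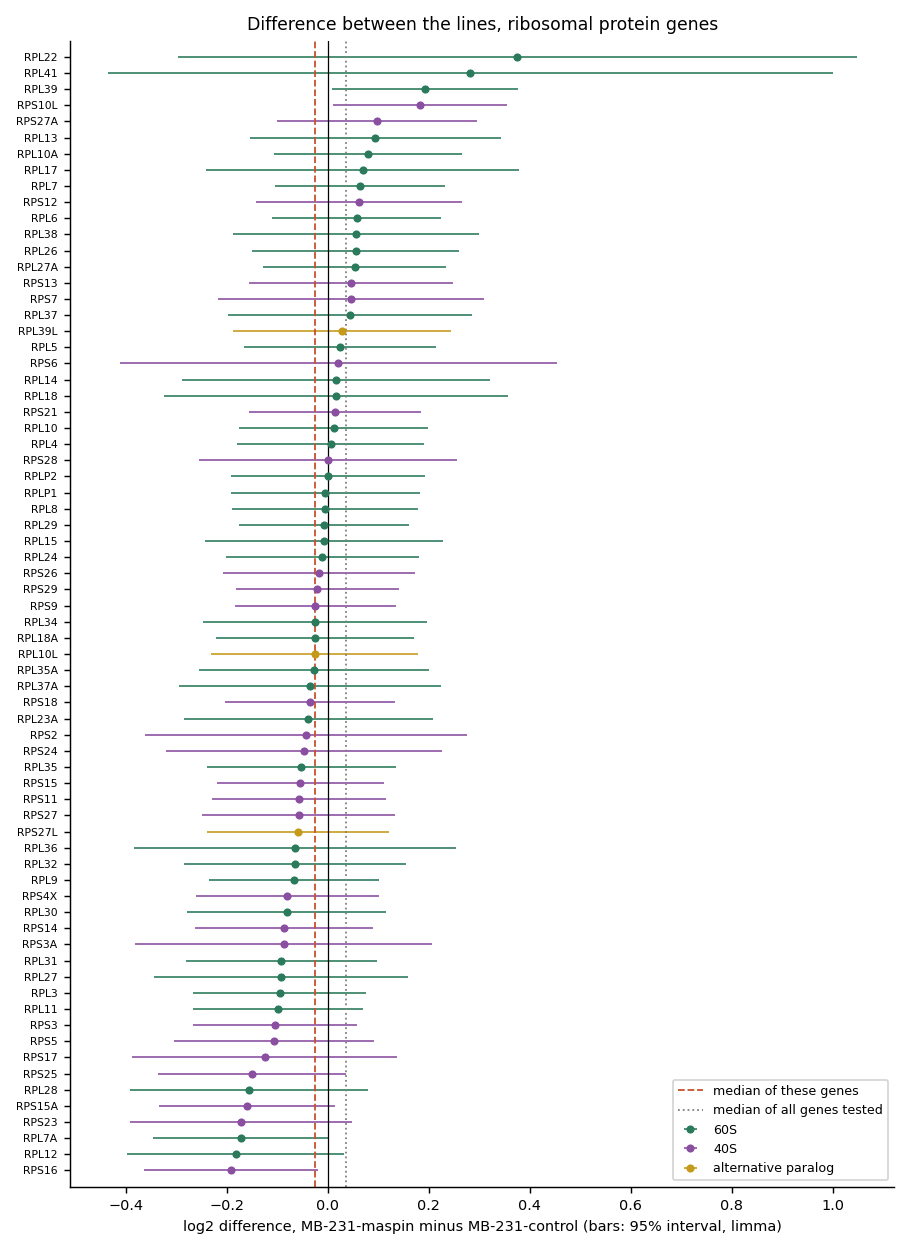
Log2 difference between the lines for 70 of the 71 ribosomal protein genes tested, sorted by size, with the 95% interval from limma and colours for the subunit. The points run from -0.19 (RPS16) to 0.38 (RPL22), the intervals of RPL22 and RPL41 are the widest, and only RPL39, RPS10L and RPS16 have an interval that leaves out 0.

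A larger share of the intervals lay close to 0 than among all genes tested. The 95% interval lay within 1.2-fold in both directions for 32 of the 71 genes (45.1%), compared with 22.2% of all genes tested. It lay within 1.5-fold for 69 of them (97.2%), compared with 91.8% of all genes. For all genes with a mean above 1000 these shares were 33.3% and 94.7%, closer to those of the family. RPL22 and RPL41 were the exceptions. The median SD of log2 values within a group was 0.08 for the ribosomal protein genes, 0.10 for all genes with a mean above 1000 and 0.12 for all genes tested. The median difference was -0.01 for the 40 genes of the 60S subunit, -0.05 for the 28 of the 40S subunit and -0.03 for the 3 paralogs tested.

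The groups did not overlap for 2 genes that were higher and 6 that were lower on the arrays labelled MB-231-maspin. Among all genes tested, 13.8% were higher and 6.87% lower without overlap. The 2 higher genes were RPL39 and RPS10L, and the 6 lower ones were RPS16, RPL7A, RPS15A, RPS25, RPS3 and RPL11. An exact permutation test of 3 arrays against 3 cannot give a p below 0.1, so each gene is given with the adjusted p from limma, which ran over all genes tested.

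**Figure D2:**
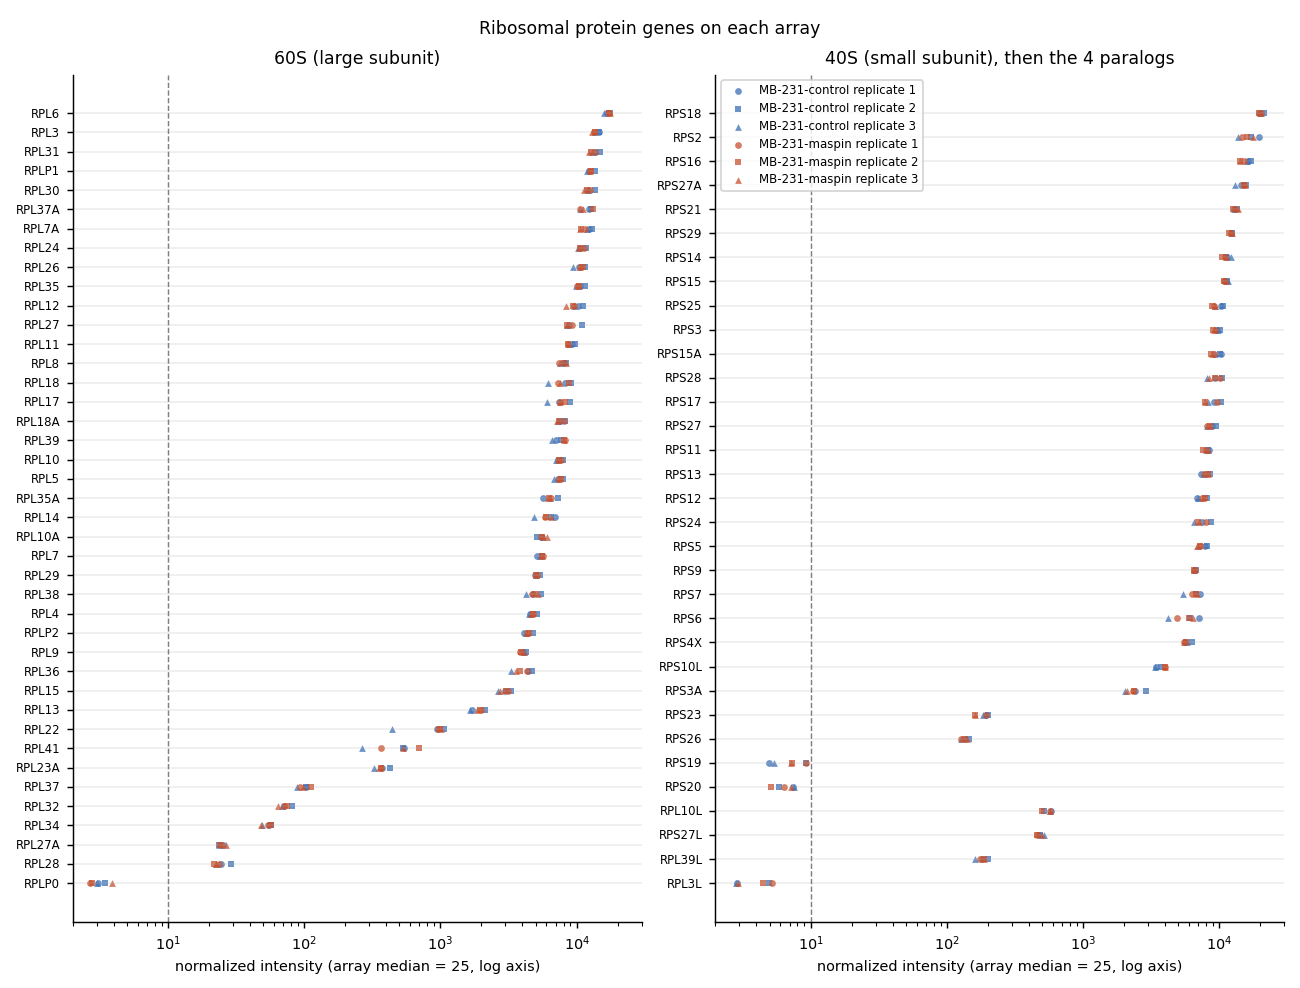
Normalized intensity of 74 of the 75 genes on each of the 6 arrays (log axis), blue for MB-231-control, red for MB-231-maspin, with 1 symbol per replicate and genes sorted by mean within the subunit. Most genes lie above 1000 with the 6 arrays close together, 4 genes lie left of the dashed minimum of 10, and among the genes right of it RPL22, RPL41 and RPS6 show the widest scatter.

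The 6 largest differences below 0 came from both subunits and ran from -0.19 to -0.16 on the log2 scale. RPS16, whose tail reaches the tRNA in the decoding subunit, had 16260, 17190 and 15970 on the control arrays (those labelled MB-231-control) and 15030, 14140 and 14090 on the maspin arrays (those labelled MB-231-maspin). All 3 maspin arrays lay below all 3 control arrays. The log2 difference was -0.19 (standard error 0.07, 95% interval -0.36 to -0.02, adjusted p = 0.322 from limma), the smallest adjusted p of the family. A dimmer RPS16 probe gave 13990, 14550 and 12750 against 13030, 13280 and 12440, where the groups overlapped, and a difference of -0.09. RPL7A, a protein of the large subunit, had 12220, 12900 and 11960 on the control arrays and 11480, 10750 and 10660 on the maspin arrays. Again the groups did not overlap, and the difference was -0.17 (standard error 0.08, adjusted p = 0.376 from limma).

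RPL12, which sits at the base of the stalk where elongation factors bind, had 10230, 11180 and 9590 on the control arrays and 9604, 9385 and 8327 on the maspin arrays. Control replicate 3 lay just under maspin replicate 1, so the groups overlapped, with a difference of -0.18 (standard error 0.09, adjusted p = 0.445 from limma). RPS15A of the small subunit had 10290, 10080 and 9362 against 9140, 8646 and 8817. These groups did not overlap, and the difference was -0.16 (standard error 0.08, adjusted p = 0.413 from limma). RPS23, a protein of the decoding centre that affects the accuracy of translation, had 194.2, 200.6 and 184.6 against 193.5, 160.4 and 162.1. Maspin replicate 1 lay among the control arrays while the other two were lower, and the difference was -0.17 (standard error 0.10, adjusted p = 0.481 from limma). RPL28, a large subunit protein that yeast lacks, was dim, with 24.5, 28.8 and 22.7 against 23.7, 21.7 and 22.5. Only control replicate 2 stood above the rest, and the difference was -0.16 (standard error 0.10, adjusted p = 0.547 from limma). Without that array the RPL28 difference was -0.060. RPS23 had -0.26 without maspin replicate 1, and RPL12 had -0.12 without maspin replicate 3. With quantile normalization the differences of RPS16, RPL12 and RPL7A were -0.12, -0.115 and -0.11. With cyclic loess they were larger than in the main fit, at -0.206, -0.206 and -0.193.

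The 2 largest differences above 0, those of RPL22 and RPL41, turned on control replicate 3. RPL22, a large subunit protein that also binds a small RNA of the Epstein-Barr virus, had 951, 1056 and 437 on the control arrays and 958, 993 and 1008 on the maspin arrays. Control replicate 3 alone was low, and the other 5 arrays lay together. The difference of 0.38 (standard error 0.29, adjusted p = 0.621 from limma) was -0.02 without that array. RPL41, a very short peptide at the interface of the subunits, had 540, 531 and 266 on the control arrays and 368, 699 and 533 on the maspin arrays. Control replicate 3 and maspin replicate 1 were low and maspin replicate 2 was high. Its difference was 0.28 (standard error 0.31, adjusted p = 0.735 from limma), -0.05 without control replicate 3 and -0.13 for its dimmer probe.

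RPL39 and RPS10L were the genes above 0 whose groups did not overlap. RPL39, a small protein of the tunnel through which the new peptide leaves, had 7032, 7651 and 6622 on the control arrays and 8157, 8032 and 8116 on the maspin arrays. Every maspin array lay above every control array, and the difference was 0.19 (standard error 0.08, 95% interval 0.01 to 0.38, adjusted p = 0.354 from limma). RPL39 was called when the raw intensities were corrected with normexp and quantile normalized, at a difference of 0.20, and under no other setting tried. The RPS10L probe had 3419, 3737 and 3395 against 3996, 3962 and 4005, with the maspin arrays close to each other and above the control arrays. Its difference was 0.18 (standard error 0.07, adjusted p = 0.347 from limma). Without the sequence of the probe, whether it reads the RPS10 transcript was not tested. RPS27A, which is made as a fusion with ubiquitin, had 14400, 15550 and 13010 against 15250, 15200 and 15380, and RPL13 of the large subunit had 1704, 2120 and 1641 against 1984, 1956 and 1857. In both genes control replicate 2 was the highest array, and the differences were 0.10 for RPS27A and 0.09 for RPL13, with adjusted p of 0.667 and 0.747 from limma. Without control replicate 2 the differences were 0.16 and 0.21, and without control replicate 3 they were 0.030 and 0.024.

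The acidic stalk proteins RPLP1 and RPLP2, which recruit elongation factors, had near equal means. RPLP1 had 12340, 13730 and 11870 on the control arrays and 12570, 12700 and 12470 on the maspin arrays, with a 95% interval of the log2 difference from -0.19 to 0.18. RPLP2 had 4121, 4770 and 4223 against 4309, 4485 and 4296, with an interval from -0.19 to 0.19. In both genes the maspin arrays lay inside the range of the control arrays. RPLP0, the core of the stalk and a common reference gene, had a signal of 3.07, 3.43 and 3.03 on the control arrays and 2.69, 2.79 and 3.90 on the maspin arrays. The brightest negative control spot on the same arrays lay at 3.76, 9.35 and 3.22 and at 3.27, 2.58 and 3.44, so the RPLP0 probe did not stand clear of the background and no fold is given.

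RPL5 and RPL11, which with 5S rRNA form a particle that can bind MDM2 and so stabilise p53, did not pass the test. RPL5 had 7330, 7953 and 6817 against 7416, 7634 and 7385, a difference of 0.02 (95% interval -0.17 to 0.21). RPL11 had 9192, 9657 and 8840 against 8597, 8683 and 8561, without overlap, and a difference of -0.10 (95% interval -0.27 to 0.07, adjusted p = 0.597 from limma), or -0.066 without control replicate 2. RPS6, the substrate of the S6 kinases downstream of mTOR, had 7062, 6035 and 4206 on the control arrays and 4923, 5979 and 6363 on the maspin arrays. Control replicate 1 was the highest and control replicate 3 the lowest of all 6, and the 95% interval of -0.41 to 0.45 was the widest after those of RPL22 and RPL41. Without control replicate 3 the RPS6 difference was -0.19.

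RPS18, often used as a reference gene, had the brightest probe of the family, with 19630, 21230 and 20050 on the control arrays and 20240, 19400 and 19760 on the maspin arrays. Its log2 difference was -0.04 (95% interval -0.20 to 0.13) with overlapping groups, and its sign turned to 0.10 under quantile normalization. The next brightest probes were those of RPL6, a large subunit protein, with a difference of 0.06, and RPS2, near the mRNA entry of the small subunit, with -0.04. RPS2 had 19610, 17150 and 13670 against 14740, 16040 and 17750, so the control arrays reached beyond the maspin arrays on both sides. No member was saturated, and the brightest raw signal of a member was 48010 scanner units.

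The alternative paralogs were given beside the genes they resemble. Probe sequences were not used, so whether a paralog's probe also reads the gene it resembles was not tested. RPL10L, known from testis, had 577, 516 and 570 on the control arrays and 567, 498 and 570 on the maspin arrays (difference -0.03), and RPL10 had 7233, 7977 and 6992 against 7691, 7436 and 7228 (difference 0.01). RPL39L, also known from male germ cells, had 180, 199 and 162 against 176, 187 and 186, a difference of 0.03 with overlapping groups. RPS27L, a target of p53, had 473, 483 and 520 against 462, 458 and 497, a difference of -0.06, and RPS27 had 8790, 9409 and 8066 against 8147, 8558 and 8484, also -0.06. In each of these genes the arrays of the lines overlapped. RPL3L, known from striated muscle, had a signal of 2.83 to 5.16 and was not tested, while RPL3 had 14530, 14660 and 13570 against 13330, 13730 and 12960 and a difference of -0.10 (95% interval -0.27 to 0.08).

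Of the 4 genes left out by the minimum, RPLP0, RPS19 and RPS20 encode core parts of every ribosome. RPS19, the gene most often mutated in Diamond-Blackfan anaemia, had 4.95, 9.18 and 5.41 on the control arrays and 9.22, 7.30 and 7.12 on the maspin arrays. RPS20 had 7.40, 5.90 and 7.53 against 6.34, 5.12 and 7.12. On control replicate 2 both lay under the brightest negative control spot, and on the other 5 arrays above it. Another 13 of the 75 genes had a mean between 10 and 1000, among them RPL28, RPL27A, RPL34 and RPL32, which encode core proteins too. The low signals are reported as probe signals and not as transcript levels.

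Second probes gave a partial repeat within the same hybridisations. Of the 15 genes with more than 1 probe, 13 had both probes tested, and the differences had the same sign in 7 and lay within 0.1 of each other on the log2 scale in 9. The largest gap was 0.42 for RPL41. The probes of RPL10A had differences of 0.08 and 0.07, and those of RPS27A, 0.10 and 0.05. Below 0 lay both probes of RPL3, with -0.10 and -0.06. None of these probes was called.

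**Figure D3:**
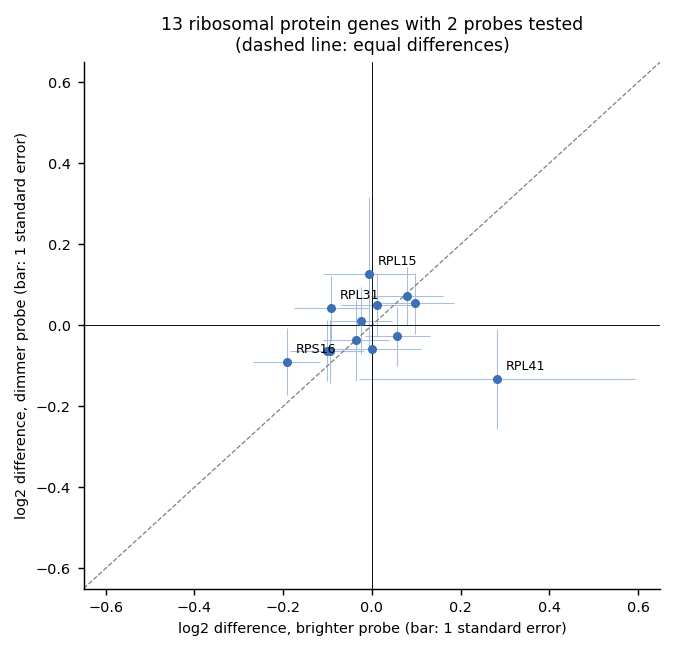
Log2 difference of the brighter probe (horizontal) against that of the dimmer probe (vertical) for the 13 genes with both tested, bars 1 standard error, dashed line equal differences. Most points lie near the origin, RPS16 is negative on both axes, and RPL41 stands apart at 0.28 and -0.13.

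The arrays labelled MB-231-control differed from each other over the whole family. Control replicate 2 was the highest of the 6 arrays for 49 of the 71 ribosomal protein genes and control replicate 3 the lowest for 32. The median deviation from each gene's mean was 0.12 on control replicate 2 and -0.07 on control replicate 3, and from -0.016 to -0.0034 on the 3 maspin arrays. All genes tested showed the same order of these 2 arrays, with medians of 0.08 and -0.12. Among all 12761 genes with 6 values, control replicate 2 was highest for 4960 and control replicate 3 lowest for 6580. After quantile normalization control replicate 2 was highest for 23 of the 71 genes and control replicate 3 lowest for 21. After cyclic loess control replicate 3 was instead the highest for 26. Whether scaling accounts for the pattern was not tested.

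**Figure D4:**
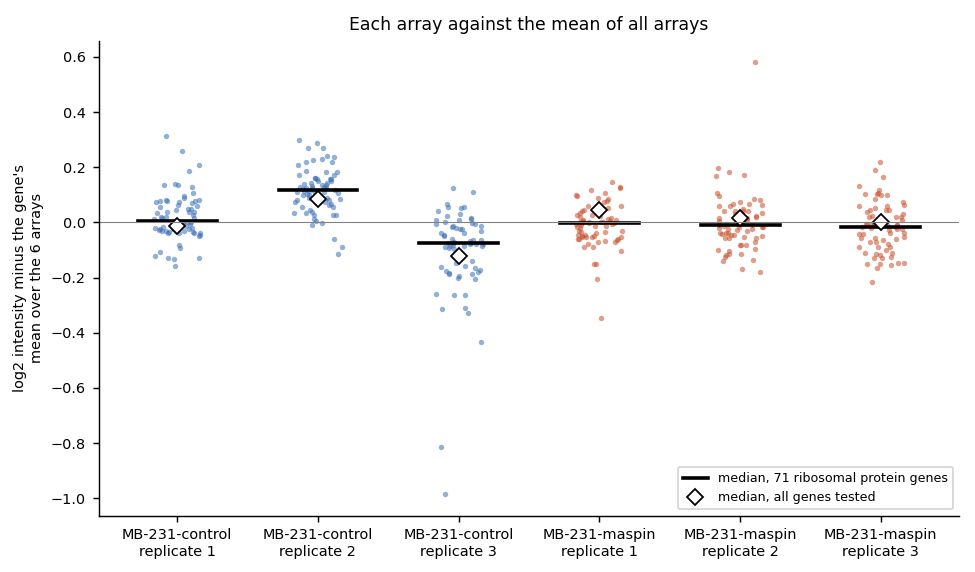
Log2 intensity minus the gene's mean over the 6 arrays, 1 point per ribosomal protein gene and array, bars for the median of the 71 genes and diamonds for the median of all genes tested. Control replicate 2 lies above 0 (median 0.12), control replicate 3 below (median -0.07), and the lowest points of control replicate 3 are RPL22 and RPL41.

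Control replicate 3 lay below the mean of the other two control arrays in 64 of the 71 genes, with a median of -0.13 on the log2 scale against -0.15 over all genes tested. In 11 genes the gap exceeded 0.3, a limit chosen after the values were seen. For neither count was the share over all genes taken, so neither is read as a trait of the family. The gap was -1.20 in RPL22, -1.01 in RPL41, -0.63 in RPS6, -0.48 in RPL18, -0.45 in RPL14 and -0.44 in RPL36. It was smaller in RPS2, RPL17, RPS3A, RPS7 and RPS24. Without control replicate 3 the median difference of the family was -0.07, and without control replicate 2 it was 0.03. Its sign therefore changed with the array left out. The median of all genes moved as well, to -0.03 and 0.09, and in each of these fits the family's median lay below that of all genes.

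Genes with and without a tract had like medians. The median log2 difference was -0.025 for the 39 tested genes with a tract at their start and -0.021 for the 17 tested genes with a start on file and no tract. Of the genes whose promoters are shown above, those with the longest runs, RPL39 and RPL7A, differed in sign (0.19 and -0.17).

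Other genes of ribosome production and translation gave the setting for these values. In limma 0 of them were called in any of the 7 lists, against 0.854% of all genes tested. The lists had from 7 to 74 genes tested, as given with each. At an unadjusted p under 0.05 from limma the 7 lists held 18 genes with a difference above 0 and 0 below it. Those above were 7 of 69 biogenesis factors, 4 of 74 mitochondrial ribosomal proteins and 2 of 29 initiation and release factors. The rest were 2 of 15 genes of RNA polymerase I, 1 of 13 mTOR and TOP regulators and 2 of 7 genes outside the name pattern. The 16 elongation factors and other TOP mRNA genes had 0. Over all genes tested the shares above and below were 9.49% and 3.84%. Of 69 ribosome biogenesis and rRNA processing factors tested, 55 had a difference above 0, with a median of 0.09. At an unadjusted p under 0.05, 7 of them were higher and 0 lower, against 9.49% and 3.84% of all genes. BYSL, which acts in the maturation of the small subunit, had 497, 589 and 509 on the control arrays and 674, 656 and 692 on the maspin arrays, without overlap (difference 0.35, adjusted p = 0.152 from limma). PNO1, also a factor of small subunit maturation, had 152, 162 and 149 against 180.3, 186 and 188, again without overlap (difference 0.26, adjusted p = 0.188 from limma).

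Of 8 ribosomal genes on the array whose names fall outside the pattern, 7 were tested, with a median of -0.0044. RPL7L1, a paralog of RPL7 that takes part in ribosome assembly, had 1889, 2083 and 1835 on the control arrays and 2515, 2503 and 2607 on the maspin arrays. The groups were well apart, and the difference of 0.39 (standard error 0.08, 95% interval 0.21 to 0.58, adjusted p = 0.0863 from limma) had the smallest adjusted p of all these lists. RPL7L1 was called with array weights (0.38), cyclic loess (0.35), normexp and quantile normalization (0.32) and without control replicate 2 (0.45). RPL7 itself had 5126, 5569 and 5356 against 5701, 5522 and 5547, overlapping, with a difference of 0.06. RPL22L1, the paralog of RPL22, had 419, 479 and 417 against 528, 543 and 499, also without overlap (difference 0.26, adjusted p = 0.252 from limma). RACK1, a scaffold on the small subunit, and FAU, which carries RPS30, had differences of -0.08 and -0.07.

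The 16 elongation factors and other TOP mRNA genes tested had a median of 0.07, with 0 at an unadjusted p under 0.05. RefSeq starts with a tract were found for 8 of the 10 genes of that list that had a start on file. The smallest p belonged to EIF5A (difference 0.22) and PABPC1 (0.23), whereas TPT1, a TOP mRNA of unrelated function, had -0.17 (adjusted p = 0.509 from limma). The 29 initiation and release factors had a median of 0.09, and EIF3D, a cap-binding part of eIF3, had 3250, 3361 and 2906 against 3772, 4024 and 4165 (difference 0.33, adjusted p = 0.164 from limma). EIF2B5 followed with 0.21.

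Among 15 genes of RNA polymerase I and its factors the median was 0.06, with UBTF (0.26) and TAF1B (0.23), which act at the rDNA promoter, having the smallest p. Among 13 mTOR and TOP regulators it was 0.04, with EIF4EBP2 (0.25) and MAX (0.19) first, while LARP1, which binds TOP tracts, had 0.04 and MYC -0.06. The 74 mitochondrial ribosomal protein genes, whose ribosome translates only mitochondrial mRNAs, had a median of 0.04 with 47 above 0. MRPL19 (0.39, adjusted p = 0.122 from limma) and MRPS10 (0.33, adjusted p = 0.192 from limma) had the smallest p. The cytosolic family thus had the lowest median of the 8 groups, described here with no test between them.

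**Figure D5:**
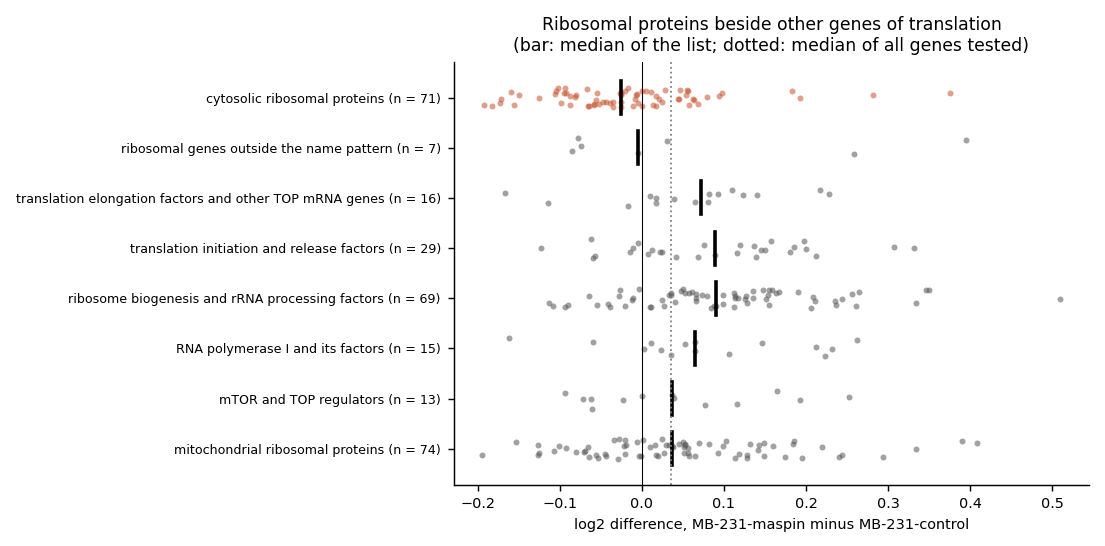
Log2 difference between the lines for the genes of each list, 1 point per gene tested, with a bar at the median of the list and a dotted line at the median of all genes tested (0.04). Cytosolic ribosomal proteins have a median of -0.03, ribosome biogenesis factors 0.09 and mitochondrial ribosomal proteins 0.04, and the points of all lists overlap.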

How the data were processed

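The deposited scanner files hold raw, background-subtracted and globally normalized intensity per spot. The authors subtracted the background mean of each array (67.8 to 70.3 scanner units) and scaled its median to 25. The deposited series table, treated as a score, holds the same values rounded (difference at most 0.5, same blanks). Of 24460 gene probes, 22967 carry a symbol, and 33 symbols turned into dates were restored. Each of the 19771 genes was taken by its probe of highest mean. The minimum was that of the methods, a mean over 10 in at least 1 group, and a gene needed 2 measured arrays per group. log2 values were fitted with limma 3.58.1 (lmFit, eBayes, two-sided) in R 4.3.3, with Benjamini-Hochberg adjustment over all 12766 genes. The code was tested on simulated data. Figures were drawn with Python 3.11.15 and matplotlib 3.10.9. The members and the gene lists were chosen with earlier results of these data known. Named genes were set by rule: the 6 largest differences in each direction, the stalk genes, RPL5, RPL11, RPS6, RPS27A, RPS18, the paralogs and their parents, the 3 brightest and 3 dimmest, and of each list the 2 genes of smallest p. Other genes named were chosen after their values were seen. For 1 member the result is not reported here by itself and counts only in the totals. Alternatives were the methods' t-test, an intensity trend with robust prior, array weights, no minimum, a mean above 50, quantile, cyclic loess and normexp (offset 50) normalization, log2(value + 10), the rounded table, single probes, a block for the replicate number, and leaving out each array.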

Additional observations from a re-analysis of the deposited data

How the results depend on the processing

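The count over all genes, 109, moved by more than 1.5 times to 21 with the methods' t-test, 273 with array weights, 55 with no minimum, 43 with a mean above 50, 242 with cyclic loess and 238 with normexp and quantile normalization, and ran from 29 to 222 with each array left out. The count of ribosomal protein genes called was 0 in every other setting and 1 with normexp and quantile normalization. With each array left out the median of the family ran from -0.07, without control replicate 3, to 0.03, without control replicate 2. In the lists, RPL7L1 was called with array weights, cyclic loess, normexp with quantile normalization and without control replicate 2 (0.38, 0.35, 0.32 and 0.45). The same 4 settings called 1 of the 74 mitochondrial ribosomal protein genes each. Normexp with quantile normalization called 1 of 29 initiation and release factors, and leaving out control replicate 2 called 2 of 69 biogenesis factors. Of all 12766 genes these 4 settings called 273, 242, 238 and 222, in the order given. The cause of these changes was not tested.

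Of 503 values of 28 genes, 35 changed sign, in 11 genes. With quantile normalization the log2 differences were 0.050 for RPLP1, 0.0025 for RPLP2, 0.10 for RPS18, 0.035 for RPS2 and -0.018 for RPL39L. With normexp and quantile normalization they were 0.040 for RPLP1, 0.079 for RPS18, 0.037 for RPS2 and -0.028 for RPL39L. With cyclic loess they were -0.0042 for RPL5, -0.012 for RPS6, -0.035 for RPL39L and -0.017 for RPL10. With array weights they were 0.033 for RPLP2 and -0.069 for RPS6, and RPLP2 had 6.8e-05 with the rounded table. With each array left out the range was -0.023 to 0.61 for RPL22, -0.054 to 0.53 for RPL41, -0.049 to 0.056 for RPLP1, -0.041 to 0.064 for RPLP2, -0.030 to 0.081 for RPL5, -0.19 to 0.18 for RPS6, -0.077 to 0.037 for RPL10L, -0.049 to 0.10 for RPL39L, -0.028 to 0.067 for RPL10 and -0.19 to 0.075 for RPS2.

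The labels do not say whether the replicate numbers pair the arrays. Same-numbered arrays deviated with r = -0.367, 0.483 and 0.195, and differently numbered ones with r from -0.489 to 0.308. Deviations from a mean of 3 arrays are tied to each other, so these values cannot settle the question. With the replicate number as a block, 117 genes were called and 0 ribosomal protein genes. With 3 arrays a line, the number of arrays limits the precision.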

Other observations

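Probes named for ribosomal protein pseudogenes were set beside the family after the data were seen. Of 53 such probes, 47 passed the minimum and 0 were called in limma, with 2 higher and 2 lower at an unadjusted p under 0.05. In the same fit of 14903 single probes, 0.845% were called, and 9.48% were higher and 3.87% lower without adjustment. Their median log2 difference was -0.03, and the values ran from -0.21 to 0.30. RPL7L1P4, named for the paralog RPL7L1, had 0.26, and RPS26P15 had -0.21. Whether these probes read the pseudogenes or the parent transcripts was not tested.

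Several other genes of the lists had the same lowest, next lowest and highest array as RPL41, FBL, SBDS and GAR1 among them. FTSJ3 and MRPL42 are given here and were picked after their values were seen. FTSJ3, an rRNA processing factor, had 415, 422 and 217 on the control arrays and 331, 677 and 491 on the maspin arrays. MRPL42, a mitochondrial ribosomal protein, had 811, 782 and 461 against 663, 1156 and 891. As in RPL41, control replicate 3 was the lowest array, maspin replicate 1 the next and maspin replicate 2 the highest. The differences were 0.51 for FTSJ3 (adjusted p = 0.521 from limma) and 0.41 for MRPL42 (adjusted p = 0.529 from limma), the largest of their lists, and neither was called.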
